A study of Mus musculus with 12 samples.

Results

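The genes examined here encode the enzymes that make and destroy the cyclic nucleotides cGMP and cAMP in the mouse aorta, together with their closest partners. They were chosen by gene symbol and comprise the phosphodiesterases, the guanylyl and adenylyl cyclases, the natriuretic peptide receptors, the cGMP-dependent kinases and the nitric oxide synthases. The rule found 49 genes of the 22180 with a probe set naming 1 gene only. Adcy3 also matched, but its only probe set names a second gene, Cenpo, so it was not analysed. The highest mean over all 12 arrays chose between probe sets for Npr1 and Pde7a, which had several.

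RNA came from the aortic vessel tissue of female mice of the outbred CD-1 stock, 1 array per mouse. The CM-695 group (6 mice) was injected intraperitoneally with 80 mg/kg of the compound 2 h and again 1 h before sacrifice. The vehicle group (6 mice) received saline, and the series design records 1 injection for it, so handling may have differed between the groups and cannot be told apart from the compound. CM-695 is described in the labels as inhibiting both histone deacetylase 6 and phosphodiesterase 9. All mice were perfused with buffered saline before the vessel was taken.

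Nitric oxide and natriuretic peptides raise cGMP in vessels: nitric oxide acts on a soluble guanylyl cyclase in smooth muscle, and the peptides act on receptors that are guanylyl cyclases themselves. Hormone receptors coupled to G proteins raise cAMP through the membrane adenylyl cyclases. Both messengers relax smooth muscle and restrain platelets, and phosphodiesterases end their signals by hydrolysis. Inhibitors of phosphodiesterases act on the enzyme and need not alter the level of its transcript.

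The values are signals on the log2 scale, normalized by the authors with RMA. Medians of the 12 arrays ran from 4.69 to 4.74, and any 2 arrays correlated at 0.957 to 0.977 over all probe sets. The mean signal of 8 smooth muscle markers ran from 8.82 to 10.8 in CM-695 mice and from 9.38 to 10.2 in vehicle mice, all 8 lying above the array median in vehicle aorta. All 5 brown adipocyte markers were also bright, with means of 10.7 to 11.8 after CM-695 and 10.9 to 11.7 after vehicle. Heart muscle markers had means of 6.27 to 8.40 after CM-695 and 7.49 to 9.25 after vehicle, 7 of 8 having an unadjusted limma p under 0.05 and 0 an adjusted one. Other marker lists also differed in 1 direction without an adjusted call: all 6 fibroblast markers had differences below 0 (median -0.46, 2 at an unadjusted limma p under 0.05), all 5 platelet markers above 0 (median 0.32, 3 at that p) and all 4 measured lymphocyte markers above 0 (median 0.29, 2 at that p). Their part in the results was not tested. Photoreceptor markers, which the aorta should lack, had vehicle means of 4.27 to 5.11 over the 5 genes measured, so signals of that size cannot be read as expression. In whole tissue, fewer cells of a type and less RNA per cell cannot be told apart.

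In vehicle aorta 29 of the 49 genes were above the array median on all 6 arrays, as were 11507 of all 22180 genes. The rank orders probe set signals, which also depend on how well each probe binds, and is not an order of transcript amounts. Pde3b, a cGMP-inhibited phosphodiesterase that mediates the antilipolytic action of insulin in fat cells, ranked first at 9.44 ± 0.22 (SD, n = 6), above 98.3% of all genes. Ranks 2 to 6 were Adcy5, Gucy1a1, Pde3a, Gucy1b1 and Pde7b, with means from 8.09 to 8.58 and SDs from 0.41 to 0.55. These SDs give the spread of each gene between mice and do not measure how certain the order is, which was not tested.

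Other genes with a known role in vessels followed. Pde5a, the target of sildenafil, had 7.64 ± 0.54 (SD, n = 6, rank 10), the smooth muscle cGMP kinase gene Prkg1 7.19 ± 0.41 (rank 15) and the endothelial synthase gene Nos3 6.52 ± 0.15 (rank 19). Pde9a, which encodes the cGMP-specific phosphodiesterase named as a target of CM-695, ranked 25 of 49 at 5.42 ± 0.17 (SD, n = 6), above 55.9% of all genes. The last ranks went to genes known from other tissues. The photoreceptor phosphodiesterase genes Pde6a, Pde6b and Pde6c lay between 3.02 and 3.72, and the second cGMP kinase gene Prkg2, known from intestine and growth plate, lay at 3.65. The receptor cyclase genes Gucy2c to Gucy2g, known mainly from gut and sensory cells, lay between 3.71 and 4.47. Without detection calls, weak expression cannot be separated from none at such signals.

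**Figure D1:**
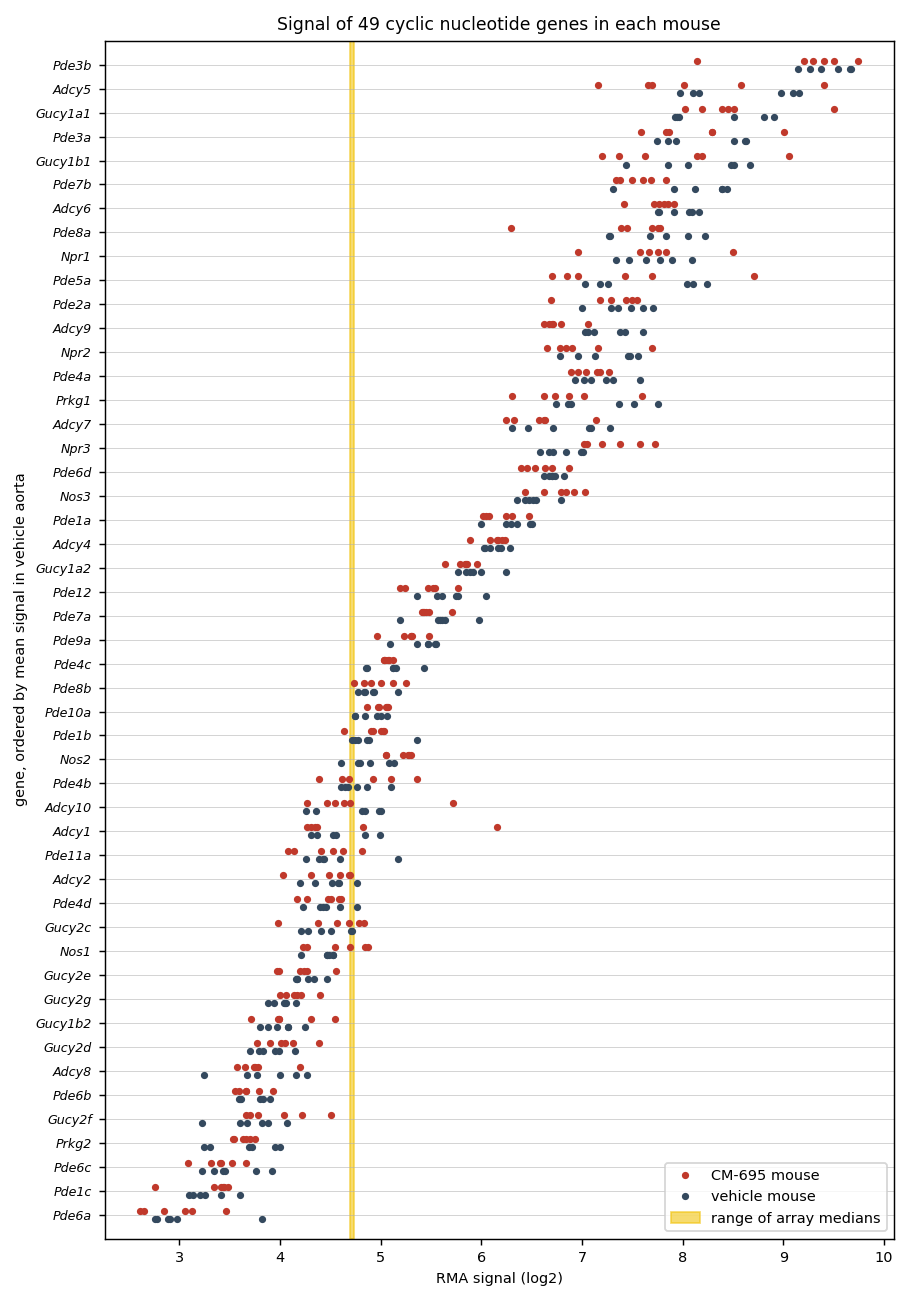
RMA signal (log2, horizontal axis) of the 49 genes in each mouse, ordered down the page by mean signal in vehicle aorta; red points are the 6 CM-695 mice, dark points the 6 vehicle mice and the yellow band the range of array medians. Npr3 is the gene whose 6 red points all lie right of its dark points, and single CM-695 mice lie far from the other 5 for Adcy1, Adcy10 and Pde8a.

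Comparing CM-695 with vehicle asked whether transcripts of this system moved within about 2 h of dosing. None of the 49 genes passed an adjusted limma p of 0.05 over all 41345 probe sets, where 0.167% of genes passed (0.0225% higher and 0.144% lower). At an unadjusted limma p under 0.05, 5 of 49 genes (10.2%) were counted, against 9.1% of all genes. Of these, 3 were higher after CM-695 (4.96% of all genes) and 2 lower (4.14% of all genes), so the counts lay near the background. In 1 of 49 genes every CM-695 mouse lay on one side of every vehicle mouse, against 1.08% of all genes (0.442% with CM-695 higher and 0.636% with CM-695 lower). The median difference was -0.06 log2, with 18 genes above 0 and 31 below, and the median over all genes was 0.02. The largest differences were -0.54 for Pde7b and 0.52 for Npr3, both below 1.5-fold. On simulated data, with independent noise per probe set and 50 planted changes of each size, the same test recovered 34% of 1.5-fold and 82% of 2-fold changes. Most 1.5-fold changes went uncalled there, so changes of the sizes seen here could be missed. Recovery in the real data may differ, since their noise is shared between genes. The planted changes also included 4-fold and 8-fold ones and fell on probe sets drawn from all, whatever their spread. The median SE was 0.13 for the 49 genes and 0.12 for all genes, but 0.35 for Adcy5, 0.33 for Pde5a and 0.30 for Gucy1b1. The recovered shares therefore do not hold for such variable genes, where 2-fold changes could be missed as well.

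**Figure D2:**
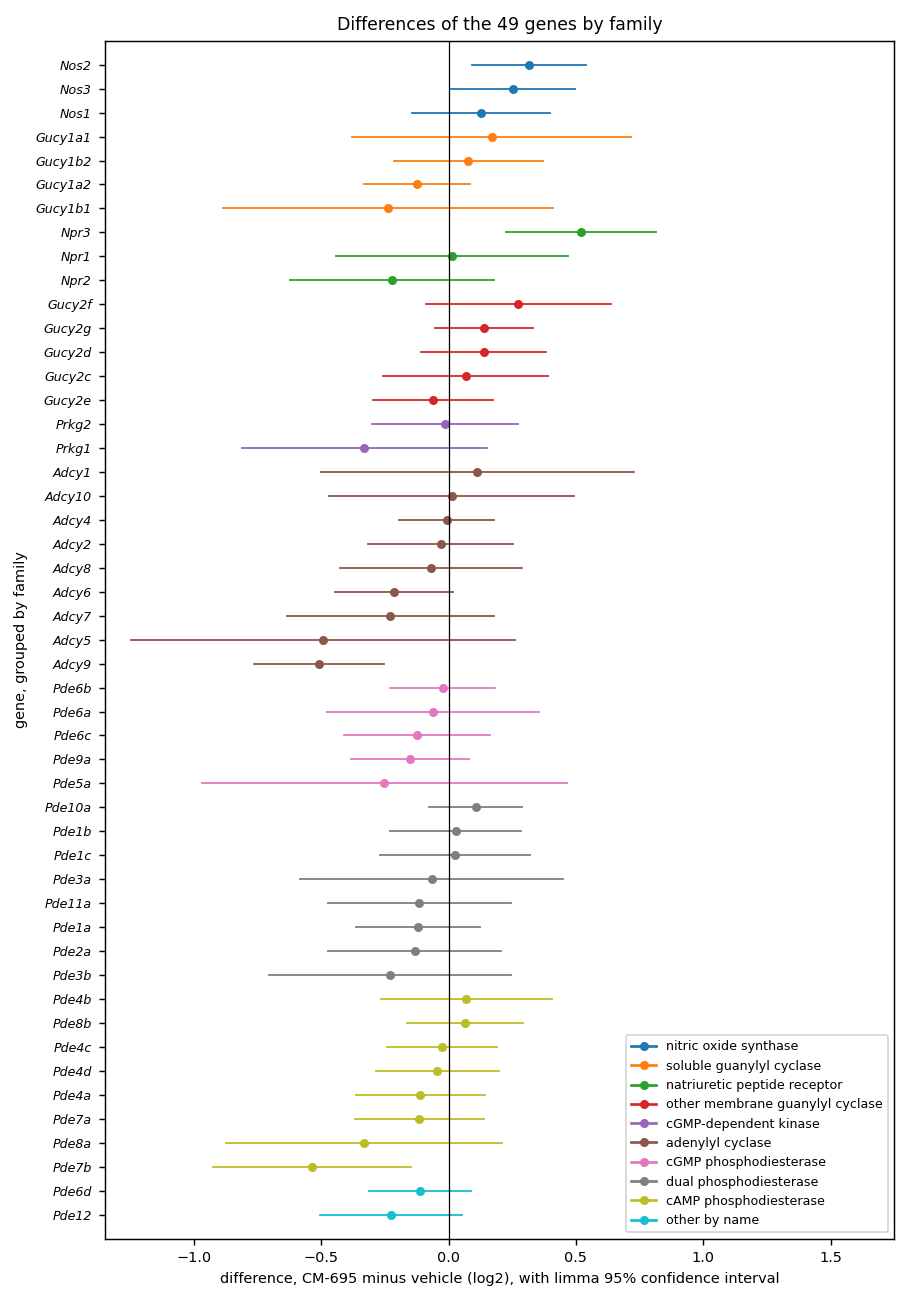
Difference between CM-695 and vehicle means (log2, horizontal axis; right of 0 is higher after CM-695) with limma's 95% confidence interval for the 49 genes, coloured and grouped by family (n = 6 mice per group). Intervals leave out 0 for Npr3, Nos2 and Nos3 on the right and for Adcy9 and Pde7b on the left, and the widest belong to Adcy5 and Pde5a.

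Promoters are shown for the genes with an unadjusted p under 0.05 that the promoter table holds, because cAMP can act back on such genes through CREB. They are the 250 bases before the annotated start from RefSeq (GRCm38.p6), 5′ to 3′ on the minus strand, with capitals for TGACG, the core of the cAMP response element, on either strand:
Adcy9 (chr16:4420499-4420748): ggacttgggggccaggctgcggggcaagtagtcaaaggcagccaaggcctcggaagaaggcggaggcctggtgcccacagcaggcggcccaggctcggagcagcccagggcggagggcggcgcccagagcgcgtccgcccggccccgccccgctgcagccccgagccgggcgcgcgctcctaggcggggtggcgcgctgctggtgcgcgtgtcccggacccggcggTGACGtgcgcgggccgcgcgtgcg
Npr3 (chr15:11907372-11907621): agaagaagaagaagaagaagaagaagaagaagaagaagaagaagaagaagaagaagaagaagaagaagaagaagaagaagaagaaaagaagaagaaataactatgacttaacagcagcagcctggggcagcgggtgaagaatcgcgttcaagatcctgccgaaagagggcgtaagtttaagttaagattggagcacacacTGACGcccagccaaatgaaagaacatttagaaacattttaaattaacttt
Pde7b (chr10:20548329-20548578): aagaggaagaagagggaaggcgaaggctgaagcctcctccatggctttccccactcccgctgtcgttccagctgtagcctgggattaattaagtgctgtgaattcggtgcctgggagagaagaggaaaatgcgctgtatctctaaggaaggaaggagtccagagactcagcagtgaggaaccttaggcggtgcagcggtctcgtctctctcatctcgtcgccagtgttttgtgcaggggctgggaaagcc

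Adcy9 (difference -0.51) and Npr3 (difference 0.52) each hold 1 TGACG, and Pde7b holds 0. The Adcy9 window is 78.8% G and C, while that of Npr3 is 38.8% and opens with a repeat of the triplet AGA. Of the 37 members in the promoter table, 11 (29.7%) hold TGACG, against 19.8% of all 27025 genes and 15 of the 18 CREB and cAMP-induced genes there. The full palindrome TGACGTCA, which contains TGACG on both strands, is in 0 of the 37 members, 1.77% of all genes and 3 of the 18 induced genes. The E-box CACGTG, bound by the clock activator, is in 2 of the 37, Adcy1 and Gucy1a2, against 6.86% of all genes. These are matches of letters in 1 window per annotated start, and a gene counted if any of its starts held them. Of the members, 12 have several starts, while all 27025 genes have 32851 starts, so the shares are not matched for number of starts.

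The 3 nitric oxide synthase genes all had positive differences. Nos3 measured 6.84, 7.03, 6.43, 6.62, 6.79 and 6.92 in CM-695 mice 1 to 6, and 6.44, 6.47, 6.51, 6.55, 6.36 and 6.79 in vehicle mice 1 to 6. The groups overlapped, with 4 of 6 CM-695 mice above the highest vehicle mouse, number 6. The difference was 0.25 (SE 0.11, limma p = 0.0420, adjusted p = 0.524; exact permutation test, p = 0.0433). The mean of 8 endothelial markers was 7.79 ± 0.13 in CM-695 mice and 7.81 ± 0.14 in vehicle mice (SD, n = 6 each). With the heart muscle score as a covariate the Nos3 difference was 0.16 (SE 0.16).

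Nos2, the synthase induced by inflammatory signals, measured 5.05, 5.28, 5.22, 5.06, 5.30 and 5.28 in CM-695 mice 1 to 6. In vehicle mice it measured 4.78, 4.90, 5.13, 4.61, 4.79 and 5.08. The vehicle mean of 4.88 lies within the range of the photoreceptor markers, where a signal cannot be read as expression. Of the CM-695 mice, 4 of 6 lay above all vehicle mice, the other two lying below vehicle mice 3 and 6. The difference was 0.32 (SE 0.10, limma p = 0.00921, adjusted p = 0.352; exact permutation test, p = 0.0130). Macrophage markers (6 measured) had means of 6.34 to 7.26 after CM-695 and 6.33 to 7.13 after vehicle. The neuronal synthase gene Nos1 was dim in both groups, at 4.58 ± 0.28 in CM-695 mice and 4.45 ± 0.12 in vehicle mice (SD, n = 6 each).

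The soluble guanylyl cyclase is a dimer of an alpha and a beta subunit that binds nitric oxide through haem. Gucy1a1, its main vascular alpha subunit, measured 8.39, 9.51, 8.02, 8.51, 8.19 and 8.45 in CM-695 mice 1 to 6, and 7.96, 8.81, 8.91, 8.51, 7.93 and 7.94 in vehicle mice. CM-695 mouse 2 stood above all others, and the rest overlapped. Gucy1b1, the beta partner, measured 7.37, 9.05, 7.20, 8.19, 7.62 and 8.14 in CM-695 mice and 7.44, 8.51, 8.67, 8.48, 7.86 and 8.05 in vehicle mice. Mouse 2 was again the highest CM-695 mouse and mouse 3 the lowest. The 2 subunits had differences of 0.17 (SE 0.25) and -0.24 (SE 0.30), with limma adjusted p of 0.881 and 0.851. Without CM-695 mouse 2 they were -0.030 and -0.46, and without CM-695 mouse 3 the Gucy1b1 difference was -0.093. Gucy1a2, the other alpha subunit, measured 5.64 to 5.96 (median 5.84) after CM-695 and 5.76 to 6.25 (median 5.90) after vehicle, a difference of -0.12 (SE 0.096, adjusted p = 0.737). Gucy1b2 was dim, at 4.09 ± 0.29 in CM-695 mice and 4.01 ± 0.16 in vehicle mice (SD, n = 6 each).

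Among natriuretic peptide receptors, the clearance receptor had the only separated groups of the 49 genes. Npr3 encodes a receptor without a cyclase domain that takes up and removes natriuretic peptides. It measured 7.04, 7.19, 7.38, 7.73, 7.015 and 7.57 in CM-695 mice 1 to 6, and 6.99, 6.84, 6.58, 6.71, 6.67 and 7.008 in vehicle mice. All 6 CM-695 mice lay above all vehicle mice, but CM-695 mouse 5 and vehicle mouse 6 were nearly level, and repeated quantile normalization or subtracting array medians gave 0 separated genes. The difference was 0.52 (SE 0.14, 95% confidence interval 0.23 to 0.81) or 1.43-fold. Its limma p was 0.00206 and its adjusted p 0.210. The exact permutation p was 0.00216, the smallest that 6 mice against 6 can give. With the heart muscle score, which averaged 7.37 after CM-695 and 8.66 after vehicle, as a covariate the difference was 0.58 (SE 0.19).

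The receptors with cyclase activity did not pass. Npr1, the receptor of atrial and brain natriuretic peptides, measured 7.67, 8.49, 6.96, 7.76, 7.57 and 7.84 in CM-695 mice and 7.63, 8.10, 7.78, 7.89, 7.33 and 7.47 in vehicle mice, a difference of 0.01 (SE 0.21, limma adjusted p = 0.991). CM-695 mouse 2 was the highest of all 12 and CM-695 mouse 3 the lowest. A second Npr1 probe set with dimmer signals had a difference of 0.13 (SE 0.10, adjusted p = 0.737). Npr2, the receptor of C-type natriuretic peptide, measured 6.90, 7.69, 6.65, 6.78, 6.84 and 7.16 after CM-695 and 6.78, 7.46, 7.47, 7.56, 6.96 and 7.13 after vehicle, a difference of -0.22 (SE 0.19, adjusted p = 0.758). The 5 other receptor cyclase genes had differences from -0.06 to 0.27, with adjusted p from 0.658 to 0.928.

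Prkg1, the kinase through which cGMP relaxes smooth muscle, measured 6.62, 7.60, 6.30, 6.73, 6.87 and 7.02 in CM-695 mice and 6.74, 7.37, 7.76, 7.51, 6.89 and 6.86 in vehicle mice. The groups overlapped, with 3 of 6 CM-695 mice below the lowest vehicle mouse, number 1. The difference was -0.33 (SE 0.22, limma adjusted p = 0.694).

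Adcy9 had the smallest p of the 49 genes. It encodes a membrane adenylyl cyclase known for its low sensitivity to forskolin. It measured 6.71, 6.62, 6.68, 6.79, 7.06 and 6.71 in CM-695 mice 1 to 6, and 7.61, 7.38, 7.06, 7.12, 7.42 and 7.03 in vehicle mice. CM-695 mouse 5 lay within the vehicle range and the other five below it. The difference was -0.51 (SE 0.12, 95% confidence interval -0.77 to -0.25), 1.42-fold lower after CM-695, with limma p = 0.000876 and adjusted p = 0.144 (exact permutation test, p = 0.00649). With the heart muscle score as a covariate it was -0.37 (SE 0.16, adjusted p = 0.682).

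The other adenylyl cyclase genes had differences from -0.49 to 0.11, and 7 of all 9 were below 0. Adcy5, a calcium-inhibited cyclase prominent in heart and striatum, measured 7.65, 9.40, 7.16, 8.01, 7.69 and 8.58 in CM-695 mice and 8.16, 8.97, 9.10, 9.15, 8.10 and 7.97 in vehicle mice. CM-695 mouse 2 exceeded every vehicle mouse while 3 of 6 CM-695 mice lay below them all, and the difference was -0.49 (SE 0.35, limma adjusted p = 0.712). It was -0.76 without CM-695 mouse 2 and -0.31 without CM-695 mouse 3. Adcy6, its close relative, varied far less, with 7.75 ± 0.17 in CM-695 mice and 7.96 ± 0.17 in vehicle mice (SD, n = 6 each) and a difference of -0.21 (SE 0.11, adjusted p = 0.581). Adcy4, known from endothelium, was nearly level, at 6.13 ± 0.13 in CM-695 mice and 6.13 ± 0.10 in vehicle mice. Adcy10, the soluble cyclase activated by bicarbonate, and the calcium-stimulated Adcy1 and Adcy8 lay near or under the array median.

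**Figure D3:**
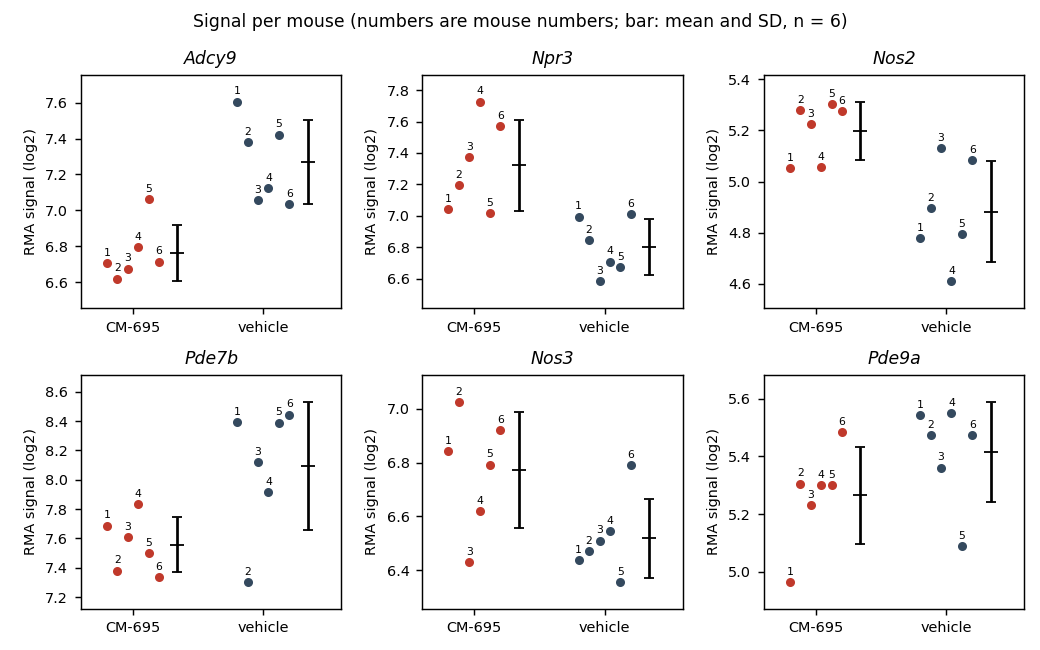
RMA signal (log2) per mouse for the 5 genes with an unadjusted limma p under 0.05 and for Pde9a, with CM-695 mice in red on the left and vehicle mice dark on the right; numbers are mouse numbers and bars give the mean and SD (n = 6). The groups are apart for Npr3, by a narrow margin, and overlap for Adcy9, Nos2, Pde7b, Nos3 and Pde9a.

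Of the 23 genes named as phosphodiesterases, 18 had differences below 0 and 5 above, between -0.54 and 0.11, and none passed an adjusted limma p of 0.05 (smallest 0.364). Their median was -0.11 log2, beside 0.02 for all genes. Over all genes, 9913 of 22180 had differences below 0. Pde9a measured 4.97, 5.31, 5.23, 5.30, 5.30 and 5.48 in CM-695 mice 1 to 6, and 5.54, 5.47, 5.36, 5.55, 5.09 and 5.47 in vehicle mice. Only CM-695 mouse 1 lay below the vehicle range. The difference of -0.15 (SE 0.11, limma adjusted p = 0.716) had a 95% confidence interval of -0.38 to 0.08. It ran from -0.22 to -0.08 over 26 alternatives.

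Pde5a measured 6.70, 8.71, 6.86, 7.42, 6.96 and 7.69 in CM-695 mice and 7.03, 8.04, 8.11, 8.24, 7.18 and 7.26 in vehicle mice. The spread within each group exceeded the difference of -0.25 (SE 0.33, limma adjusted p = 0.858). CM-695 mouse 2 was highest, and 3 CM-695 mice lay below all vehicle mice. The photoreceptor genes Pde6a, Pde6b and Pde6c had differences of -0.12 to -0.02.

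Of the 8 phosphodiesterase genes whose products hydrolyse both messengers, 3 had differences above 0 and 5 below, and none passed. Pde3a, the cGMP-inhibited form of heart, platelets and vessels, measured 7.83, 9.01, 7.59, 8.29, 7.86 and 8.29 in CM-695 mice and 7.74, 8.63, 8.61, 8.51, 7.93 and 7.85 in vehicle mice, a difference of -0.07 (SE 0.24, limma adjusted p = 0.959). Pde3b measured 9.74, 8.14, 9.30, 9.40, 9.50 and 9.20 after CM-695 and 9.66, 9.67, 9.15, 9.26, 9.54 and 9.38 after vehicle. CM-695 mouse 2, the highest for Pde3a, was the lowest of all mice for Pde3b, and the difference was -0.23 (SE 0.22, adjusted p = 0.797). Without that mouse it was -0.015. Pde1a, activated by calcium and calmodulin, measured 6.01 to 6.48 (median 6.16) after CM-695 and 6.00 to 6.50 (median 6.32) after vehicle, a difference of -0.12 (SE 0.11, adjusted p = 0.788). Pde2a, which cGMP stimulates, had 7.27 ± 0.32 in CM-695 mice and 7.41 ± 0.25 in vehicle mice (SD, n = 6 each).

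Among the phosphodiesterases specific for cAMP, Pde7b had the lowest p. It measured 7.69, 7.38, 7.61, 7.84, 7.50 and 7.34 in CM-695 mice and 8.39, 7.30, 8.12, 7.92, 8.39 and 8.44 in vehicle mice. Vehicle mouse 2 was the lowest of all 12, and the other five vehicle mice lay above every CM-695 mouse. The difference was -0.54 (SE 0.18, limma p = 0.0106, adjusted p = 0.364; exact permutation test, p = 0.0281), and without vehicle mouse 2 it was -0.69 (adjusted p = 0.0927). Pde8a had 7.39 ± 0.56 in CM-695 mice and 7.72 ± 0.39 in vehicle mice (SD, n = 6 each). The 4 rolipram-sensitive genes Pde4a to Pde4d had differences from -0.11 to 0.07. Of these, Pde4b, whose transcript cAMP is known to induce in several cell types, measured 4.85 ± 0.35 in CM-695 mice and 4.78 ± 0.19 in vehicle mice (SD, n = 6 each). Pde6d encodes a carrier of prenylated proteins and Pde12 an RNA exonuclease, so neither hydrolyses cyclic nucleotides despite the name. Their differences were -0.11 (SE 0.093) and -0.23 (SE 0.13).

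Other genes of the pathway were examined as 4 lists. Of 24 measured ligands, receptors and G proteins, none passed an adjusted limma p of 0.05, and 2 were higher and 2 lower at an unadjusted p under 0.05, where 4.96% of all genes were higher and 4.14% lower. Corin, the protease that activates atrial natriuretic peptide, differed by -0.73 (SE 0.24, adjusted p = 0.361), the receptor gene Calcrl by -0.51 (SE 0.19, adjusted p = 0.445) and the protease gene Furin by 0.34 (SE 0.14, adjusted p = 0.463). Corin and the ligand gene Nppa, chosen after its values were seen, are made by heart muscle. Nppa had 7.20 ± 1.53 in CM-695 mice and 8.88 ± 1.64 in vehicle mice (SD, n = 6 each), and the heart muscle score of the CM-695 group was lower as well. With the heart muscle score as a covariate the Corin difference was -0.06. That score itself differed by -1.29 between the groups, so its part cannot be told apart from that of the compound and was not tested.

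Of 44 kinases, exchange factors, channels and anchoring proteins, none passed, with 1 higher and 5 lower at an unadjusted limma p under 0.05 (4.96% and 4.14% of all genes). The kinase anchor gene Akap8 differed by -0.33 (SE 0.081, adjusted p = 0.169), with 6 of 6 CM-695 mice below all vehicle mice. It was the 1 gene of these 44 with separated groups, where 0.636% of all genes had CM-695 lower in this way. Pde4dip, which encodes a scaffold that binds phosphodiesterase 4D, differed by -0.68 (SE 0.17, adjusted p = 0.196) and the anchor gene Akap6 by -0.68 (SE 0.19, adjusted p = 0.261), each with 5 of 6 CM-695 mice below the vehicle range. Without CM-695 mouse 2 the Akap6 difference was -0.84 (adjusted p = 0.0448), the 1 call among 26 alternatives. When 1 mouse was left out, its limma adjusted p ran from 0.0448 to 0.448. The highest limma adjusted p over all alternatives was 0.680 for Akap6, 0.690 for Pde4dip and 0.666 for Akap8. With the heart muscle score as a covariate the differences were -0.53 for Pde4dip, -0.63 for Akap6 and -0.27 for Akap8. Of 22 genes for nitric oxide substrates, cofactors and regulators, none passed and 1 was higher at an unadjusted p under 0.05 (4.96% of all genes), the methyltransferase gene Prmt1 (0.22, SE 0.093, adjusted p = 0.493). Nostrin, which encodes a trafficking protein of endothelial nitric oxide synthase, differed by -0.19 (SE 0.093) and the arginase gene Arg2 by 0.19 (SE 0.099).

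Genes that cAMP is known to induce through the transcription factor CREB were the list with calls. That list was chosen with earlier results of these data known, so its counts describe it and are no test. Of 23 measured, 2 fell and none rose at an adjusted limma p of 0.05, where 0.144% of all genes fell and 0.0225% rose, and 17 were below 0 (median -0.21 log2). At an unadjusted p under 0.05, 7 were lower and 2 higher, against 4.14% and 4.96% of all genes. The 2 higher ones, named after their values were seen, were Rgs2, which encodes a regulator of G protein signalling (0.93, SE 0.33, limma adjusted p = 0.391), and the receptor gene Hcar2 (0.71, SE 0.19, limma adjusted p = 0.224), with 4 and 5 of 6 CM-695 mice above all vehicle mice. The nuclear receptor gene Nr4a3 measured 5.07, 5.92, 5.58, 5.84, 5.40 and 5.93 in CM-695 mice and 6.61, 8.26, 7.59, 7.29, 7.12 and 6.51 in vehicle mice (difference -1.61, SE 0.27, adjusted p = 0.0341). The period gene Per1 measured 7.62, 8.34, 7.59, 7.80, 7.95 and 7.94 in CM-695 mice and 8.87, 8.97, 9.01, 8.83, 8.89 and 8.63 in vehicle mice (difference -0.99, SE 0.13, adjusted p = 0.00604). Nr4a2 differed by -1.08 (SE 0.20, adjusted p = 0.0585). In 4 genes of the list, Nr4a3, Per1 and Nr4a2 among them, all CM-695 mice lay below all vehicle mice (0.636% of all genes). Per1 lost its call in 3 of 26 alternatives, with an adjusted p of 0.0800 with the replicate block, 0.0919 with the heart muscle score and 0.237 by the exact permutation test. Many genes of the list also respond to growth factors, stress and the clock, and Nr4a3 lost its call in 14 of 26 alternatives, among them leaving out CM-695 mouse 1, 3, 4, 5 or 6 or vehicle mouse 3, 4 or 5 (adjusted p 0.0718 to 0.0873).

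Several of the 49 genes were high in the same mice. Across all 12 mice, 10 of 49 genes rose with the smooth muscle marker score at an adjusted permutation p under 0.05 (147 relations of 49 genes with 3 marker scores, Pearson). They were Adcy1, Adcy5, Adcy7, Gucy1a1, Gucy1b1, Npr1, Npr2, Pde3a, Pde5a and Prkg1, with r from 0.78 to 0.98. Of these, Adcy1 had a vehicle mean of 4.60, within the range of the photoreceptor markers. Its signal was 6.16 in CM-695 mouse 2 and 4.26 to 4.83 in the other CM-695 mice. By rank its relation did not pass (rho = 0.71, permutation adjusted p = 0.0869). Correlations with the 3 scores were run for the 49 genes only, so the share of all genes with such relations is not known. The dim receptor cyclase gene Gucy2g had a negative relation (r = -0.75, rho = -0.70, permutation p = 0.00445 and 0.0130, adjusted p = 0.0344 and 0.0907). Adcy5 had Pearson's r = 0.98 and Spearman's rho = 0.97 (n = 12, permutation p = 1e-05 each, the smallest these 100000 permutations can give; adjusted p = 0.000367 and 0.000735). Pde5a had r = 0.98 and rho = 0.96 with the same p-values. For Gucy1b1, r was 0.95 and rho 0.92, and for Npr1 0.88 and 0.89, with permutation adjusted p of at most 0.00567 for these 4 values. By rank, 7 of the 10 kept an adjusted p under 0.05.

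Without CM-695 mice 2 and 3, the farthest from the median score, r for these 10 genes ran from 0.65 to 0.98. Within the CM-695 group it ran from 0.90 to 0.99 and within the vehicle group from 0.57 to 0.99, where mice 2, 3 and 4 formed a high trio and mice 1, 5 and 6 a low one. Scores and genes share the same arrays and normalization. The adipocyte score ran opposite to the smooth muscle score (r = -0.91, rho = -0.86, n = 12, without a test). In these mice 8 genes, Adcy5 and Pde5a among them, had a negative relation with it (adjusted permutation p under 0.05), and Pde3b had a positive one (r = 0.70, rho = 0.63, permutation p = 0.00669 and 0.0330, adjusted p = 0.0492 and 0.180). Without CM-695 mouse 2 and vehicle mouse 4, r for Pde3b was 0.38, so the size of the pooled r depended on them. Within the CM-695 group r for Pde3b was 0.93 and within the vehicle group 0.71.

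None of the 5 genes with an unadjusted p under 0.05 between groups was among those following the smooth muscle score. For Adcy9 r was 0.0057 and rho 0.12 (n = 12, permutation p = 0.986 and 0.713), and for Npr3 r was -0.18 and rho -0.24 (permutation p = 0.565 and 0.457). With the smooth muscle score as a covariate the differences were -0.54 for Adcy9 and 0.52 for Npr3, while that of Pde5a was 0.03 and that of Prkg1 -0.16. In that fit 10 of 49 genes (20.4%) had an unadjusted limma p under 0.05 (4 higher, 6 lower), against 10.9% of all genes. None had an adjusted one (smallest 0.106). With the adipocyte score there were 11 of 49 (22.4%, against 10.8% of all genes), and with the heart muscle score 4 of 49 (8.16%, against 7.04% of all genes). The genes added with the smooth muscle score were Gucy1a1 at 0.37, Pde8a at -0.51, Pde3b at -0.37, Adcy6 at -0.25 and Adcy5 at -0.20. The relation of Adcy9 with the heart muscle score did not pass the adjusted threshold (r = 0.73, rho = 0.74, permutation p = 0.00790 and 0.00807, adjusted p = 0.0528 and 0.0737), and the score's mean difference between the groups was -1.29. Within the CM-695 group that r was 0.25 and within the vehicle group 0.58.

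**Figure D4:**
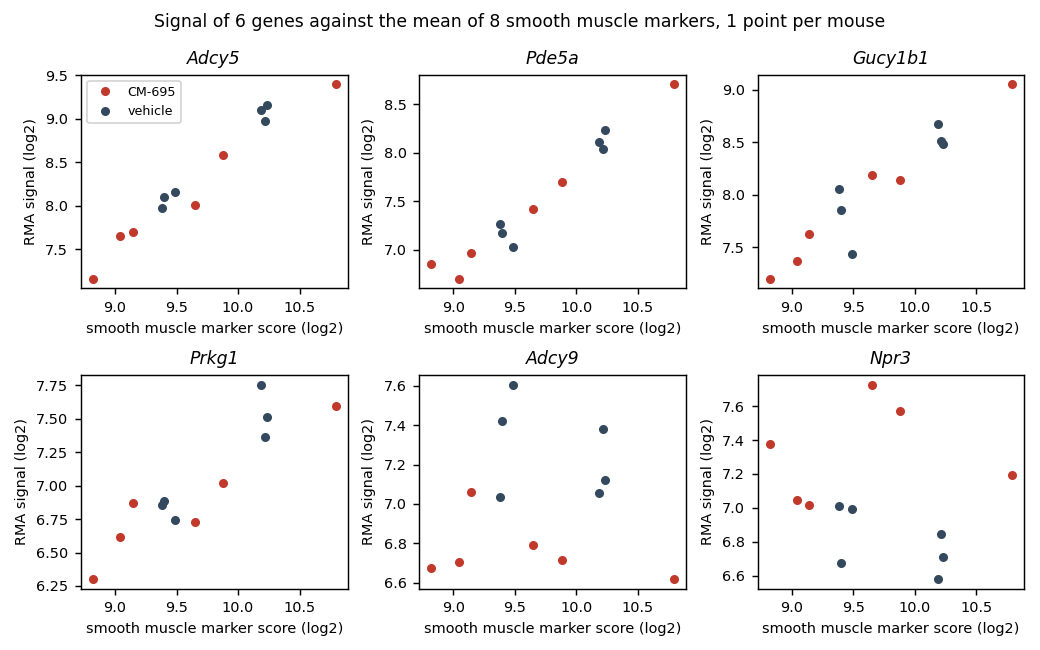
RMA signal (log2, vertical axes) of 6 genes against the mean log2 signal of 8 smooth muscle markers (horizontal axes), 1 point per mouse, with CM-695 mice in red and vehicle mice dark. Adcy5, Pde5a, Gucy1b1 and Prkg1 rise with the score in both groups, whereas in Adcy9 and Npr3 the groups stand at different heights along most of the score.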

How the data were processed

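The deposited table held log2 expression values that the authors made with RMA, per the submitters' processing notes, from 12 arrays (6 CM-695 mice, 6 vehicle mice). For software, version and build, the sources used here give nothing. Of 41345 probe sets the platform annotation paired 23521 with 1 gene and 1814 with more than 1, while 16010 are unnamed here. All 49 members matched a current gene table by gene identifier, with 49 symbols unchanged. All probe sets were fitted with limma 3.58.1 in R 4.3.3 (lmFit, eBayes, group as the only term, two-sided) and adjusted by Benjamini-Hochberg. Single genes also had an exact two-sided permutation test over 924 assignments of mice. Marker scores are means of log2 signals. On simulated data 10 of 167 calls were false. For arrays, 6 mice per group limit the precision. Promoters came from RefSeq (GRCm38.p6).

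The members, lists, named genes and alternatives were chosen with earlier results of these data known, and correlations with marker scores, the E-box and the palindrome were added after seeing the data. Values were given for Pde9a, genes with an unadjusted p under 0.05, a core of the vascular cGMP path and the 3 highest vehicle signals. From each pathway list they were given for calls and up to 3 genes with the smallest p. These values are per mouse, except ranges and medians for Gucy1a2 and Pde1a and differences for pathway genes without a call. Of these lists, 17 symbols matched no probe set of their own and were not analysed under those names. Alternatives are a replicate block, filters, scalings, weights, marker scores as covariates and leaving out mice.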

Additional observations from a re-analysis of the deposited data

Results flagged for a closer look

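In 13 of 98 groups (49 genes in 2 groups of 6 mice) 1 mouse stood apart from the other 5 by more than 0.625 of the group's range, where chance gives about 1 in 20 groups. CM-695 mouse 2, which had the highest smooth muscle score and the lowest adipocyte score of all mice, accounted for 6 of them. It was highest among CM-695 mice for Gucy1a1 at 9.51 (others 8.02 to 8.51), Adcy1 at 6.16 (4.26 to 4.83) and Adcy8 at 4.20 (3.58 to 3.78). It was lowest for Pde3b at 8.14 (9.20 to 9.74), Pde8a at 6.29 (7.39 to 7.77) and Pde1b at 4.63 (4.90 to 5.03).

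CM-695 mouse 3 was highest for the soluble cyclase gene Adcy10 at 5.72 (others 4.27 to 4.69) and for Pde7a at 5.71 (5.41 to 5.48), and CM-695 mouse 5 lowest for Pde1c at 2.75 (3.34 to 3.48). Among vehicle mice, mouse 2 was highest for Pde1b at 5.36 (4.72 to 4.88) and lowest for Nos1 at 4.21 (4.46 to 4.53). Vehicle mouse 1 was highest for Pde6a at 3.82 (2.76 to 2.97) and vehicle mouse 4 for Pde11a at 5.17 (4.26 to 4.60). Of 24 groups of marker scores, 1 stood out, the photoreceptor score of CM-695 mouse 5 at 4.50 (others 4.70 to 4.79). Most of these genes outside the smooth muscle relation lie near or under the array median.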

How the results depend on the processing

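No member passed an adjusted p of 0.05 under any of the 26 alternatives run, and members with an unadjusted p under 0.05 numbered 5 by limma and 5 by the exact permutation test. As a covariate, the smooth muscle score gave a count of 10 (20.4% of members, 10.9% of all genes). The adipocyte score gave 11 (22.4% of members, 10.8% of all genes) and the heart muscle score 4 (8.16% of members, 7.04% of all genes). The count was 4 to 7 when 1 mouse was left out. Separated groups, seen in 1 member, were seen in 0 after repeated quantile normalization or subtraction of array medians, and in 1 to 2 when 1 mouse was left out. The members' median difference of -0.06 was -0.12 without dim probe sets and -0.08 to -0.02 when 1 mouse was left out. Over all alternatives Adcy9 stayed between -0.57 and -0.37, Npr3 between 0.44 and 0.58, Nos2 between 0.26 and 0.37, Pde7b between -0.69 and -0.47 and Nos3 between 0.16 and 0.32.

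Among the members named by value, the signs of 6, none with a called difference, changed under some alternatives. Npr1, at 0.01, was -0.044 with array weights, -0.25 with the heart muscle score, -0.000115 with the endothelium score and -0.14 to 0.16 when 1 mouse was left out. With the smooth muscle score and the adipocyte score Gucy1b1, at -0.24, was 0.0044 and 0.10, Pde5a, at -0.25, was 0.027 and 0.16, and Pde3a, at -0.07, was 0.13 and 0.20. Gucy1a1, at 0.17, was -0.20 with the heart muscle score and -0.030 to 0.28 when 1 mouse was left out, where Pde3a was -0.24 to 0.045. Pde3b, at -0.23, was 0.017 without CM-695 mice 2 and 3. The endothelium score and the removal of both mice were chosen after seeing the data, and the cause of these sign changes was not tested.

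Over all probe sets, 64 passed. The count was 116 without dim probe sets, 117 with the smooth muscle, 98 with the adipocyte, 11 with the heart muscle and 37 with the endothelium score, 30 without CM-695 mice 2 and 3, and 22 to 98 when 1 mouse was left out. The exact permutation test called 0, with 3849 at an unadjusted p under 0.05. Genes passing numbered 37, and 73 with 1 probe set per gene tested or probe sets averaged. Those fits left out the probe sets that do not name 1 gene, and the cause of the higher count was not tested. Other pathway genes passing numbered 2, and 1 with the adipocyte or endothelium score or without both mice, 0 with the heart muscle score or the exact test, and 1 to 3 when 1 mouse was left out. With replicate numbers as a block, 15 probe sets and 0 other pathway genes passed, and Per1 and Nr4a3 each had a limma adjusted p of 0.0800. Deviations of mice sharing a number correlated between -0.10 and 0.10, so the numbers did not pair the mice, and only replicate 5 correlated best with its own number.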
